A study of Mus musculus with 10 samples.

Results

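Type I interferon response genes are described here in the hippocampus of mice given a treatment meant to damage the meningeal lymphatic vessels, and of vehicle controls. The list holds 38 genes chosen by name as interferon-stimulated, of 28871 genes in the deposited count table. Of the 38 genes, 37 were found by their identifier. Mx2 was not analysed here. The low-count filter kept 36, and Zbp1 did not pass it. The animals were wild-type male C57BL/6J mice, 2 months old. One group received Visudyne, a verteporfin formulation used as photosensitizer, in the cisterna magna, followed by 689 nm light applied over the closed skull. The control group received vehicle and the same light. Both groups had the procedure again 2 weeks later, and the entire hippocampus was dissected 2 weeks after that. The groups hold 5 samples each, numbered 1, 4, 7, 10 and 13 for vehicle and 3, 6, 9, 12 and 15 for Visudyne, and values are given below in that order. The labels do not say that each sample is 1 animal, so p-values measure the spread between these samples.

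Type I interferons bind the receptor chains IFNAR1 and IFNAR2, whose kinases JAK1 and TYK2 phosphorylate STAT proteins, STAT2 among them. With IRF9 these form a factor that binds the interferon-stimulated response element in promoters and turns on antiviral genes. Some of these genes sense viral RNA or DNA, some block viral replication, some feed back on the pathway, and microglia, endothelium and other brain cells express them at a low level without infection. The comparison asks whether the hippocampus contains more or less of their RNA after Visudyne and light than after vehicle and light. Vessel damage and drainage are not among the values used here. In bulk tissue, fewer cells of a type and less RNA per cell cannot be told apart.

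None of the 36 tested genes passed the test. By edgeR's quasi-likelihood test with Benjamini-Hochberg adjustment at 0.05, 0 were higher and 0 were lower with Visudyne, beside 0.021% of all 19093 genes tested called higher and 0% called lower. The adjusted p was 0.9999 for every one of them. At an unadjusted p under 0.05, 1 gene was on the higher side (Ifit1, background 1.14%) and 2 on the lower side (Ly6e and Rtp4, background 0.56%). DESeq2 and limma voom called 0 of the 36 as well. Log2 fold changes, Visudyne minus vehicle, were positive for 22 genes and negative for 14, with a median of 0.057, beside 0.0022 over all genes tested. No gene had all Visudyne samples on 1 side of all vehicle samples (0 higher and 0 lower, beside 0.319% and 0.115% of all genes tested).

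The precision of these values differed between the genes. For 32 of the 36 the 95% interval of the difference lay within a 2-fold change in either direction, and for 24 within 1.5-fold. Over the 19093 genes tested, 16781 lay within 2-fold and 13622 within 1.5-fold. The difference was smaller than its own standard error (SE) for 25 of the 36, and for 14886 of the 19093 genes tested. The exceptions to the 2-fold limit were Rtp4, Cxcl10, Oas2 and Mx1, all with a mean below 1 CPM in both groups. CPM are counts scaled to an equal library size with TMM-adjusted totals.

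**Figure D1:**
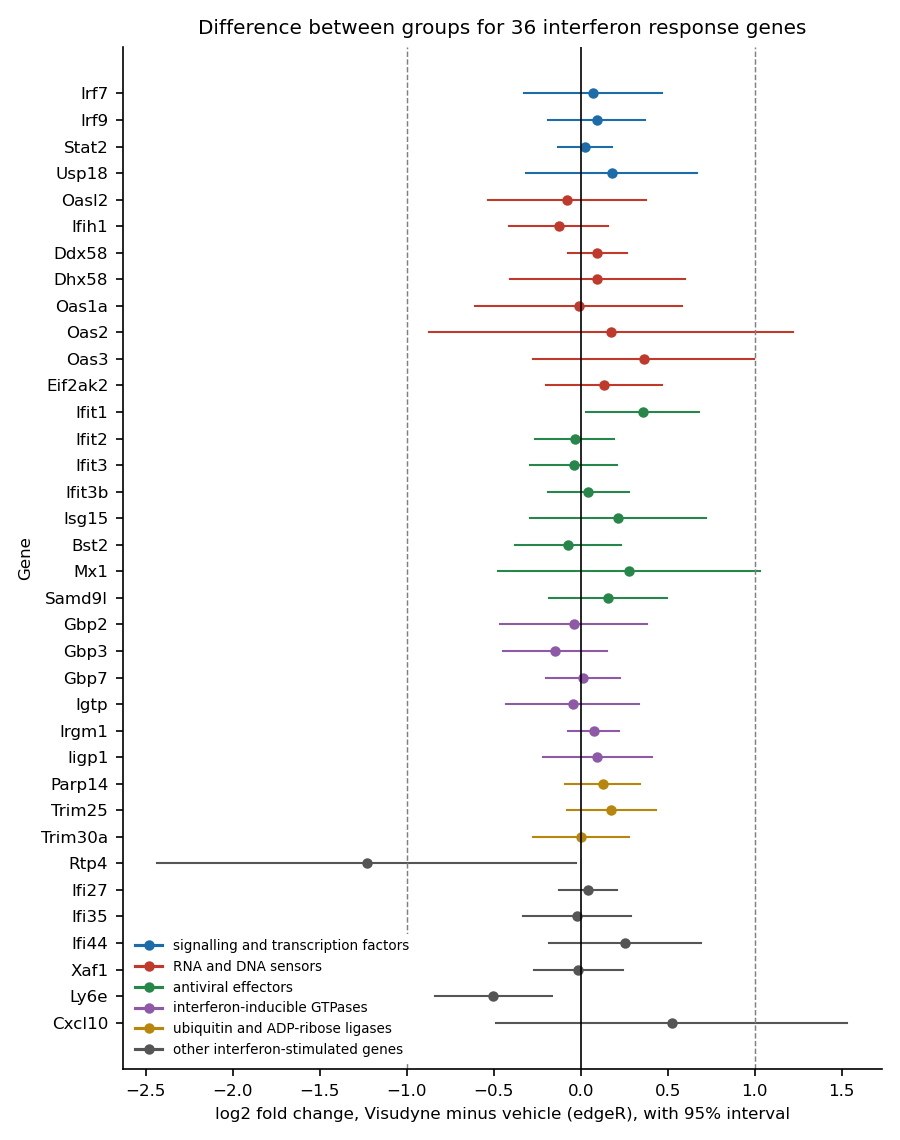
Log2 fold change of each of the 36 tested genes (x axis, Visudyne minus vehicle, edgeR, 5 samples per group; y axis, genes coloured by role). Points are estimates, lines are 95% intervals and dashed lines mark a 2-fold change. Most intervals cross 0 and stay between the dashed lines, and those of Ly6e, Ifit1 and Rtp4 do not cross 0 before adjustment.

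The promoters were searched for the response element itself. The genes were chosen as interferon-stimulated, so a high share was likely beforehand and is not independent of that choice. RefSeq promoters (GRCm38.p6, 250 bases before to 50 bases after the start) matched 27 of the 38 genes. For 20 of the 27, bases after the start matched a GENCODE transcript in the same direction. The element's core GAAANNGAAA, searched on both strands with overlaps allowed, was in the promoters of 18 of these 27 genes (66.7%). It was in 3.44% of all 32851 promoters of that length and in 3.99% of the 27025 genes that have one. A match is a description of the letters and not a measured binding site. Stretches that hold no annotated exon of a protein-coding gene are shown for 6 genes. Isg15, Ifit3, Oas3 and Igtp were at opposite ends of the range in the same samples, as given further on, Ifit1 had the smallest p on the higher side, and Ifit3b is the near-copy of Ifit3. Each is written 5′ to 3′ on the strand of its gene, and capitals mark the core or, on the opposite strand, TTTCNNTTTC.
Isg15: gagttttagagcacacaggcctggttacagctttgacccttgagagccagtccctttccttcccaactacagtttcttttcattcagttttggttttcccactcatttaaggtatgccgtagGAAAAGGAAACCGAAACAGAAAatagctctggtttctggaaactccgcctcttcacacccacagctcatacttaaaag
Ifit1: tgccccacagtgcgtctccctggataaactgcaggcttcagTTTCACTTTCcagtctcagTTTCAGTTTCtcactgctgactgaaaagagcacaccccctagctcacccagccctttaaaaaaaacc
Ifit3: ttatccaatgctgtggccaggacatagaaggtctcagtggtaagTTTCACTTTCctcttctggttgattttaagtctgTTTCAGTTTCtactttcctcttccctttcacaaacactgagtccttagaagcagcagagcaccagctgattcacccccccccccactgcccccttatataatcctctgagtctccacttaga
Ifit3b: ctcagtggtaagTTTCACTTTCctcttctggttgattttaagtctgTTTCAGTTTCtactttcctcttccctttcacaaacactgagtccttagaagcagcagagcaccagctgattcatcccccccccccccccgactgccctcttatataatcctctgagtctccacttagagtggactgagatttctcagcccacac
Oas3: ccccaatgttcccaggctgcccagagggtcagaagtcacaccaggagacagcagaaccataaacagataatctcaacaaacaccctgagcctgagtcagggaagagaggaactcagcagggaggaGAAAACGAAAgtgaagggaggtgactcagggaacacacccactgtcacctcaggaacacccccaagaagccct
Igtp: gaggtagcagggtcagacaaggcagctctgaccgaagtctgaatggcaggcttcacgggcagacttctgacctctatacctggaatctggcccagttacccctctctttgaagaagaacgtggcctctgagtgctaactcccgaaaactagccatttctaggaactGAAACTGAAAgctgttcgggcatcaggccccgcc
These stretches lie at chr4:156200819-156201018, minus strand (Isg15); chr19:34640744-34640870, plus strand (Ifit1); chr19:34583329-34583528, plus strand (Ifit3); chr19:34607757-34607956, plus strand (Ifit3b); chr5:120777662-120777859, minus strand (Oas3); and chr11:58199356-58199555, plus strand (Igtp). Isg15 had 3 overlapping copies, from base -78 to base -57 before the start. Ifit1, Ifit3 and Ifit3b had 2 separate copies each on the opposite strand. The printed stretches of Ifit3 and Ifit3b share an identical run of 119 bases, which includes both copies. The run begins at the first base of the Ifit3b stretch, so it may extend further. Oas3 and Igtp had 1 copy each, at bases -75 to -66 and -34 to -25.

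The tested genes were expressed at a low level. Per kilobase of annotated exon, their median was 0.807 CPM, beside 2.43 CPM over all genes tested. Levels ran from 0.0694 CPM per kilobase for Oas2 to 11.4 for Ifi27, which encodes a small membrane protein. Of the tested genes, only Ifi27, Ifit3 (3.53) and Eif2ak2 (2.61) were above the median of all genes. The spread between samples, as biological coefficient of variation, had a median of 16.8%, beside 11.3% over all genes tested, and 32 of the 36 were above that value. The mean level of the members had a median of 2.42 CPM, beside 8.79 CPM over all genes tested. Their spread was not compared with that of genes at the same level, so the part of level in it was not tested. For 11 of the 36 the lowest sample had fewer than 50 counts.

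**Figure D2:**
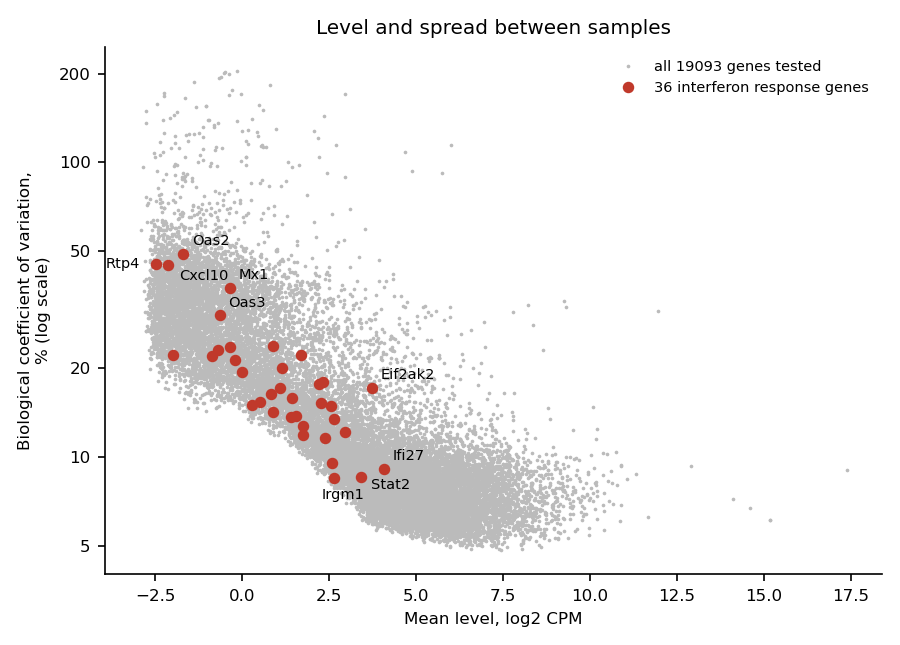
Mean level over the 10 samples (x axis, log2 CPM) and biological coefficient of variation (y axis, %, log scale) of all 19093 genes tested (grey) and of the 36 tested interferon response genes (red). Oas2, Rtp4, Cxcl10 and Mx1 spread most among the members, and Irgm1, Stat2 and Ifi27 least.

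Totals ranged from 51165271 to 66147697 estimated counts in the vehicle samples and from 53720011 to 68895223 in the Visudyne samples. Vehicle 1 and Visudyne 15 stood apart from the other samples: they held the highest value of 18.7% and 23.7% of all genes tested and the lowest of 18.4% and 20.9%. Visudyne 12 followed with 14.1% and 13.2%. Without vehicle 1 and Visudyne 15, a choice made after seeing the data, 0 members were called, and their median log2 fold change was 0.036 in place of 0.057.

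None of the 4 signalling and transcription factors of the response was called. All 4 log2 fold changes were positive, with a median of 0.081, and all 4 were smaller than their SE. Stat2, a subunit of the interferon-activated factor (chr10:128270559-128292849), measured 9.34, 11.3, 9.61, 10.6 and 11.6 CPM in the vehicle samples and 10.7, 10.9, 10.4, 10.04 and 11.3 CPM in the Visudyne samples. The Visudyne values lay inside the vehicle range, and the log2 fold change was 0.025 ± 0.071 (SE, as for all log2 fold changes below, n = 5 per group; 95% interval -0.13 to 0.18), an interval that stays within a 1.5-fold change. Irf9, the DNA-binding subunit of that factor, measured 5.46, 5.64, 5.68, 4.96 and 6.79 CPM in the vehicle samples and 5.72, 6.26, 5.47, 4.98 and 8.02 CPM in the Visudyne samples. Visudyne 15 was the highest of all 10 samples and vehicle 13 the next, and the log2 fold change was 0.092 ± 0.13. Irf7, which amplifies interferon production, measured 1.21, 0.889, 0.814, 0.949 and 0.950 CPM in the vehicle samples and 1.09, 1.16, 0.743, 0.901 and 1.17 CPM in the Visudyne samples. Vehicle 1 was highest and Visudyne 9 lowest (0.963 ± 0.151 CPM with vehicle and 1.01 ± 0.184 CPM with Visudyne; log2 fold change 0.069 ± 0.18). Usp18, an ISG15 protease that restrains signalling at IFNAR2, measured 0.623, 0.599, 0.477, 0.474 and 0.412 CPM in the vehicle samples and 0.518, 0.572, 0.861, 0.469 and 0.505 CPM in the Visudyne samples. Only Visudyne 9 lay above the vehicle range, and the log2 fold change was 0.18 ± 0.23 (95% interval -0.31 to 0.67).

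The sensors of viral nucleic acid showed the same lack of a called difference. Of 8 tested, 5 values were positive and 3 negative, with a median of 0.095. Ifih1, which encodes the long double-stranded RNA sensor MDA5 (chr2:62595798-62646255), measured 6.36, 5.18, 4.77, 3.93 and 4.99 CPM in the vehicle samples and 5.41, 5.15, 4.22, 4.40 and 3.96 CPM in the Visudyne samples. Vehicle 1 was the highest and vehicle 10 the lowest, so the vehicle group spanned the whole Visudyne range (log2 fold change -0.13 ± 0.13). Ddx58, which encodes the RNA sensor RIG-I, measured 6.41, 5.55, 5.82, 5.38 and 5.91 CPM in the vehicle samples and 6.63, 6.26, 6.06, 5.52 and 6.57 CPM in the Visudyne samples. Of the Visudyne samples, 4 of 5 were above the vehicle median, and the log2 fold change was 0.095 ± 0.078 (95% interval -0.074 to 0.26). Eif2ak2, which encodes the RNA-activated kinase PKR (chr17:78852564-78882573), measured 9.17, 13.4, 12.7, 13.6 and 14.7 CPM in the vehicle samples and 12.3, 13.6, 14.01, 10.6 and 19.1 CPM in the Visudyne samples. Vehicle 1 was the lowest and Visudyne 15 the highest of all samples, and the other 8 lay between 10.6 and 14.7 CPM. The log2 fold change of Eif2ak2 was 0.13 ± 0.15.

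Oasl2, a member of the oligoadenylate synthetase-like family, measured 1.76, 1.53, 1.51, 3.12 and 1.54 CPM in the vehicle samples and 1.80, 2.16, 1.64, 1.57 and 1.76 CPM in the Visudyne samples. Vehicle 10 lay far above the other 9 samples, all 5 Visudyne samples were above the vehicle median, and the log2 fold change was nevertheless negative at -0.079 ± 0.21. The 3 tested oligoadenylate synthetases, whose product activates RNase L, differed by -0.011 (Oas1a), 0.17 (Oas2) and 0.36 (Oas3) on the log2 scale, with SEs of 0.27, 0.48 and 0.29. Oas2 was on 6 to 41 counts per sample, and Oas1a shared 68.8% of its 31-base words with other genes, chiefly its copy Oas1g, so its level is uncertain. Dhx58, which encodes the RIG-I-like regulator LGP2, differed by 0.10 ± 0.23, with Visudyne 12 far below the rest at 0.397 CPM. Zbp1, a sensor of Z-form nucleic acid, had 1 to 11 counts per sample and was not tested. It measured 0.0958, 0.174, 0.0795, 0.0791 and 0.0792 CPM in the vehicle samples and 0.155, 0.153, 0.0844, 0.0721 and 0.0174 CPM in the Visudyne samples, with means of 0.101 ± 0.0411 CPM with vehicle and 0.0966 ± 0.0585 CPM with Visudyne and ranges that overlapped in part: Visudyne 12 and 15 lay below every vehicle sample and vehicle 4 above every Visudyne sample.

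Among the antiviral effectors Ifit1 had the smallest p. Of 8 tested effectors, 5 values were positive and 3 negative, with a median of 0.10. Ifit1, which binds viral RNA lacking a complete cap (chr19:34640871-34650009), measured 2.20, 1.95, 1.65, 1.64 and 1.87 CPM in the vehicle samples and 2.64, 2.86, 2.46, 1.77 and 2.20 CPM in the Visudyne samples. Visudyne 3, 6 and 9 were above all vehicle samples, while Visudyne 12 and 15 lay within the vehicle range. The group values were 1.86 ± 0.234 CPM with vehicle and 2.39 ± 0.423 CPM with Visudyne (SD, n = 5 each). The log2 fold change was 0.36 ± 0.15 (95% interval 0.032 to 0.68; unadjusted p = 0.034, adjusted p = 0.9999 by edgeR's quasi-likelihood test with Benjamini-Hochberg adjustment). Ifit2, Ifit3 and Ifit3b lie in the same cluster on chromosome 19 and encode related proteins, and their values were -0.036, -0.042 and 0.044 with SEs of 0.10, 0.11 and 0.11. Ifit3 measured 7.52, 5.64, 5.90, 6.90 and 5.27 CPM in the vehicle samples and 5.98, 6.61, 6.26, 6.58 and 4.91 CPM in the Visudyne samples. Vehicle 1 was the highest and Visudyne 15 the lowest. Ifit3 and Ifit3b shared 61.8% and 55.2% of their 31-base words with other genes, chiefly each other, so the split of reads between them is uncertain.

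Isg15, a ubiquitin-like protein that is attached to other proteins during the response (chr4:156199424-156200818), measured 0.431, 0.638, 0.655, 0.435 and 0.697 CPM in the vehicle samples and 0.466, 0.753, 0.692, 0.541 and 0.854 CPM in the Visudyne samples. Visudyne 6 and 15 were the highest and vehicle 1 and 10 the lowest, each on few counts (22 to 54 per sample), and the log2 fold change was 0.21 ± 0.23. Bst2, which encodes tetherin, a membrane protein that holds budding virus at the cell surface, measured 1.47, 1.24, 1.13, 1.23 and 1.16 CPM in the vehicle samples and 1.30, 1.02, 1.27, 1.14 and 1.20 CPM in the Visudyne samples. Its ranges overlapped and its log2 fold change was -0.074 ± 0.14. Mx1, a dynamin-like GTPase, spread from 0.383 CPM in vehicle 1 to 1.28 CPM in vehicle 13, with a log2 fold change of 0.28 ± 0.35. Samd9l, an antiproliferative antiviral factor, differed by 0.16 ± 0.16.

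**Figure D3:**
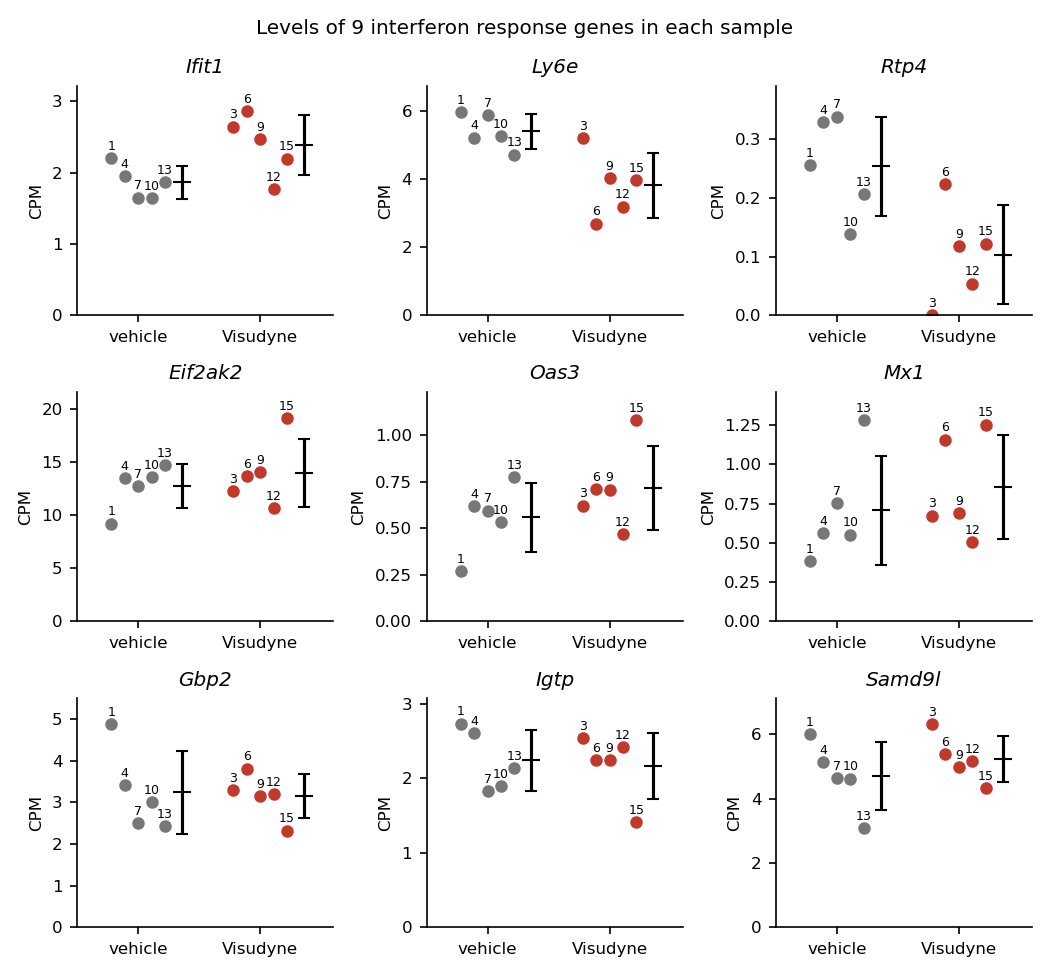
Level of 9 genes (y axes, CPM, starting at 0) in the vehicle (grey) and Visudyne (red) samples, labelled by sample number. Black bars are the mean ± SD of 5 samples. The groups overlap in every panel, and vehicle 1 and Visudyne 15 are at opposite ends for Eif2ak2, Oas3, Gbp2 and Igtp.

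The interferon-inducible GTPases, which act on the membranes around intracellular pathogens, differed by -0.15 to 0.095 on the log2 scale. All 6 intervals lay within a 1.5-fold change, with 3 positive and 3 negative values and a median of -0.014. Gbp2, a guanylate-binding protein (chr3:142620602-142638008), measured 4.87, 3.42, 2.50, 3.005 and 2.42 CPM in the vehicle samples and 3.30, 3.81, 3.16, 3.19 and 2.32 CPM in the Visudyne samples. Vehicle 1 was the highest and Visudyne 15 the lowest, and the log2 fold change was -0.041 ± 0.19. Gbp3, its neighbour on chromosome 3, measured 3.10, 3.34, 2.92, 2.31 and 2.49 CPM in the vehicle samples and 2.59, 3.05, 2.72, 2.18 and 2.23 CPM in the Visudyne samples. The ranges overlapped, with 1 of 5 Visudyne samples above the vehicle median (log2 fold change -0.15 ± 0.14). Igtp, an immunity-related GTPase (chr11:58199556-58207591), measured 2.73, 2.61, 1.83, 1.90 and 2.14 CPM in the vehicle samples and 2.54, 2.25, 2.24, 2.42 and 1.41 CPM in the Visudyne samples. Visudyne 15 lay below all other samples, and the log2 fold change was -0.047 ± 0.18. Irgm1, a regulatory member of the same family, measured 6.55, 6.41, 6.12, 5.75 and 5.70 CPM in the vehicle samples and 6.67, 6.61, 6.28, 6.38 and 6.20 CPM in the Visudyne samples. All 5 Visudyne samples were above the vehicle median, though still within the vehicle range or just over it, and the log2 fold change was 0.074 ± 0.067 (95% interval -0.072 to 0.22). Gbp7 and Iigp1 differed by 0.013 ± 0.10 and 0.10 ± 0.14.

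Of the 3 ligases, Trim25, a ubiquitin ligase that activates RIG-I, measured 2.62, 2.47, 2.96, 2.77 and 2.87 CPM in the vehicle samples and 3.51, 3.07, 2.89, 2.47 and 3.52 CPM in the Visudyne samples. Visudyne 3, 6 and 15 were above all vehicle samples and Visudyne 12 was at the bottom of the range, with a log2 fold change of 0.17 ± 0.12 (unadjusted p = 0.16, adjusted p = 0.9999 by edgeR's quasi-likelihood test). Parp14, an ADP-ribosyltransferase, measured 3.45, 3.52, 3.10, 3.20 and 2.88 CPM in the vehicle samples and 3.32, 3.86, 3.63, 3.06 and 3.73 CPM in the Visudyne samples. Visudyne 6, 9 and 15 exceeded the highest vehicle sample and the log2 fold change was 0.13 ± 0.10. Trim30a, a TRIM-family protein, had a log2 fold change of -0.0002 ± 0.13.

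The remaining 7 genes held both values with an unadjusted p under 0.05 on the lower side. Ly6e, a lipid-anchored surface protein that limits coronavirus entry (chr15:74955051-74959905), measured 5.96, 5.22, 5.88, 5.26 and 4.72 CPM in the vehicle samples and 5.20, 2.69, 4.03, 3.19 and 3.97 CPM in the Visudyne samples. All 5 Visudyne samples were below the vehicle median and 4 of them below every vehicle sample, while Visudyne 3 lay inside the vehicle range. The means were 5.41 ± 0.514 CPM with vehicle and 3.82 ± 0.954 CPM with Visudyne (SD, n = 5 each). The log2 fold change of Ly6e was -0.50 ± 0.15 (95% interval -0.84 to -0.17; unadjusted p = 0.0067, adjusted p = 0.9999 by edgeR's quasi-likelihood test with Benjamini-Hochberg adjustment). Without Visudyne 3 the adjusted p of Ly6e was 0.814, and the smallest over all 21 alternatives was 0.570.

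Rtp4, a receptor transporter protein that is induced by interferon, measured 0.256, 0.328, 0.338, 0.138 and 0.206 CPM in the vehicle samples and 0, 0.223, 0.118, 0.0541 and 0.122 CPM in the Visudyne samples. Visudyne 3 had 0 counts, which allows up to 0.0518 CPM (3 counts, counting error only). Visudyne 6 had 16 and lay among the vehicle samples, and the other 3 had 3 to 7 counts. The means were 0.253 ± 0.0840 CPM with vehicle and 0.103 ± 0.0837 CPM with Visudyne, and the log2 fold change was -1.23 ± 0.55 (95% interval -2.43 to -0.026, unadjusted p = 0.046). The comparison rests on 0 to 17 counts per sample.

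Cxcl10, a chemokine that attracts T cells, measured 0.383, 0.174, 0.179, 0.119 and 0.0792 CPM in the vehicle samples and 0.536, 0.279, 0.186, 0.216 and 0.139 CPM in the Visudyne samples. Visudyne 3 and vehicle 1 were the highest, and the log2 fold change of 0.52 ± 0.46 had a 95% interval from -0.49 to 1.53. Ifi44, an interferon-induced protein, measured 0.607, 0.869, 0.775, 0.771 and 0.934 CPM in the vehicle samples and 0.881, 1.02, 0.810, 0.721 and 1.29 CPM in the Visudyne samples. Visudyne 15 was the highest and vehicle 1 the lowest, with a log2 fold change of 0.26 ± 0.20. Ifi27, Ifi35 and Xaf1 differed by 0.042, -0.021 and -0.013 on the log2 scale, each less than its SE.

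**Figure D4:**
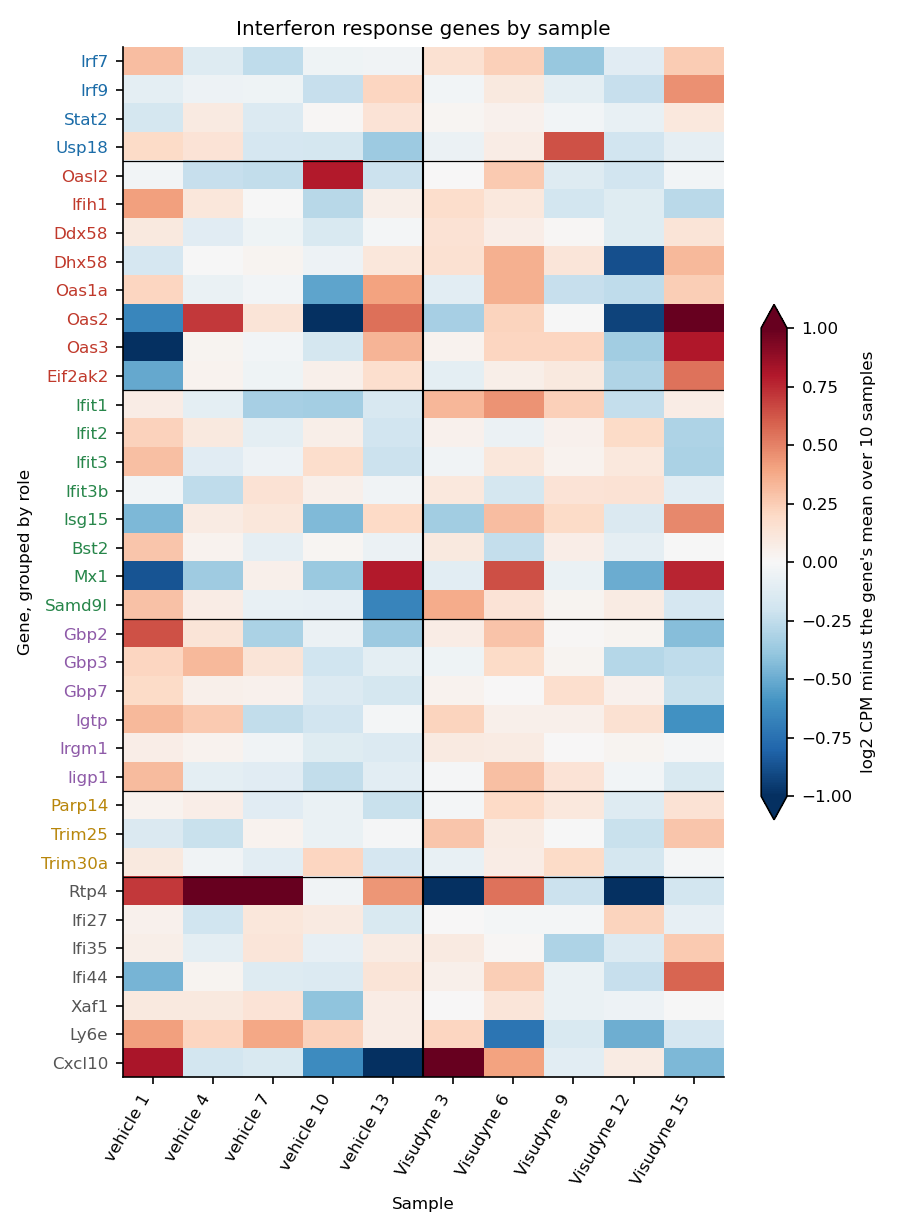
Level of each of the 36 tested genes (y axis, grouped by role) in each sample (x axis), as log2 CPM minus the mean of that gene over the 10 samples; colours end at 1 and -1. The groups show no common shift, and in the column of Visudyne 15 Oas2, Oas3, Eif2ak2 and Ifi44 are high where Igtp, Gbp2 and Ifit3 are low.

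The genes of the list did not share a single profile over the samples. Vehicle 1 held the highest value of 10 of the 36 (27.8%, beside 18.7% of all genes tested). It held the lowest of 6 (16.7%, beside 18.4%). Visudyne 15 held the highest of 8 (22.2%, beside 23.7%) and the lowest of 5 (13.9%, beside 20.9%). Vehicle 10 held the lowest value of 8 (22.2%, beside 8.75%). Whether the members differ from other genes in these shares was not tested. In Ifit2, Ifit3, Gbp2, Gbp7 and Igtp, vehicle 1 was highest and Visudyne 15 lowest (5 of 36, 13.9%, beside 9.80% of all genes tested). Isg15, Ifi44, Oas3 and Eif2ak2 had the opposite order (4 of 36, 11.1%, beside 11.6%). Either order held for 25.0% of the members and 21.4% of all genes tested, so the 2 samples separated the members about as often as other genes. The mean of the 36 centred log2 values ranged from -0.126 to 0.0488 in the vehicle samples and from -0.177 to 0.142 in the Visudyne samples, with group means of -0.0135 ± 0.0696 and 0.0135 ± 0.120. Leaving out Ifit3, Ifit3b and Oas1a, which share over 50% of their words, gave -0.0146 ± 0.0722 and 0.0146 ± 0.129.

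Genes that make or carry the interferon signal showed no called difference either. Of 21 interferon ligand genes, 4 were in the table and 0 passed the filter. Ifna16 had at most 15 counts in a sample, Ifnk 9, Ifnz 4 and Ifna4 1, while Ifnb1 and 16 others were not analysed here. Of the receptors, kinases and STATs, 10 of 11 were tested (Tyk2 was not analysed here), with 6 positive and 4 negative values and 0 called. Ifnar1, the first chain of the receptor, was at 36.8 ± 1.33 CPM with vehicle and 37.99 ± 1.59 CPM with Visudyne (SD, n = 5 each), a log2 fold change of 0.045 ± 0.045. Ifnar2, the second chain, was at 12.5 ± 0.629 CPM with vehicle and 12.4 ± 0.720 CPM with Visudyne (-0.0018 ± 0.058). Jak1 was at 167 ± 10.5 CPM with vehicle and 169 ± 10.8 CPM with Visudyne (0.018 ± 0.057). For all 3 the 95% interval stayed within a 1.5-fold change.

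Among the receptor chains on this list, the smallest p-values belonged to Ifnlr1 (0.38 ± 0.29) and Ifngr1 (0.10 ± 0.077), which serve the other interferon types. Of 19 sensors and adaptors upstream of interferon, 13 values were positive and 6 negative, and 0 were called. The 3 of smallest p were Irf3, the factor that starts interferon transcription (0.53 ± 0.29), Tbk1, its kinase (-0.093 ± 0.055), and Tlr4, a receptor for bacterial lipopolysaccharide (0.16 ± 0.11).

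Of 15 negative regulators and nucleic acid clearance genes, 9 values were positive and 6 negative, and 0 were called. Adar, which edits double-stranded RNA, Socs1, an inhibitor of JAK kinases, and Irf2, a repressor of response elements, had the smallest p, with 0.049 ± 0.039, 0.27 ± 0.29 and 0.068 ± 0.079. Of 75 further interferon-stimulated genes outside the 38, 61 were tested, with 39 positive and 22 negative values, a median of 0.035 and 0 called. The smallest p belonged to Irgm2 (-0.26 ± 0.14), a relative of Irgm1, Ifi207 (0.66 ± 0.37), a DNA-sensing family member, and Rsad2 (0.33 ± 0.21), which encodes viperin. None of the tested genes on these 4 lists had an unadjusted p under 0.05, beside 1.14% higher and 0.56% lower over all genes tested.

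**Figure D5:**
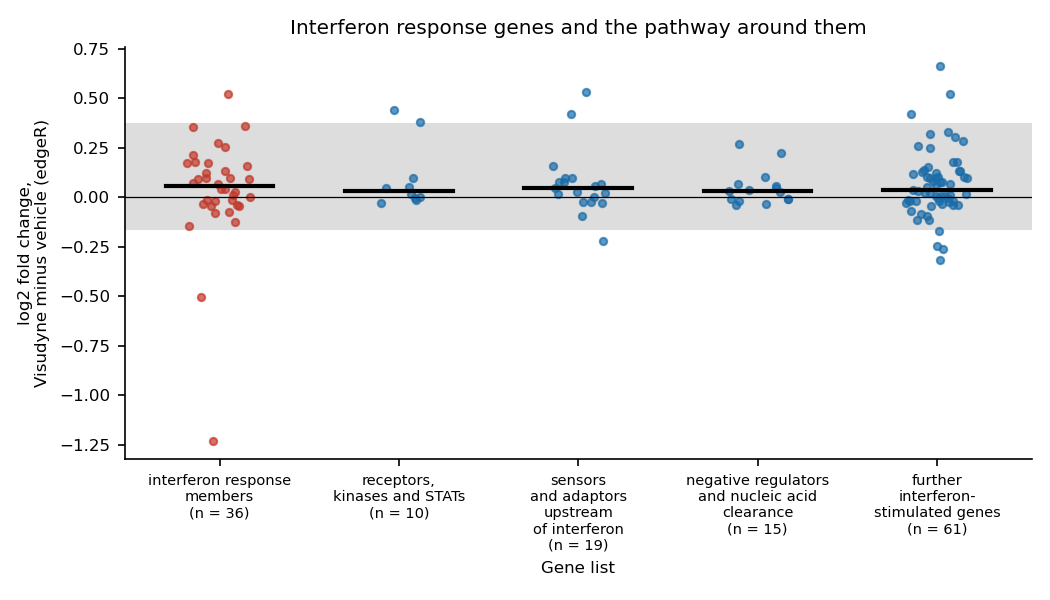
Log2 fold change, Visudyne minus vehicle (y axis), of the tested members and of the tested genes on the 4 pathway lists (x axis). Each point is a gene, black lines are medians, and the grey band spans the 5th to the 95th percentile of all genes tested. All 5 medians lie between 0.03 and 0.06.

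Markers of cell types were summed in each sample, with no other tissue for comparison. The summed level of 8 hippocampal neuron markers was 1055 ± 85.8 CPM with vehicle and 1045 ± 77.8 CPM with Visudyne, and that of 8 astrocyte markers 4719 ± 222 and 4779 ± 312 CPM. The largest part of the first sum was Zbtb20 (436 CPM with vehicle and 457 CPM with Visudyne). In the astrocyte sum it was Slc1a2 (3266 and 3275 CPM), so these sums say little about the other markers. Microglia and endothelium express interferon response genes at rest. Microglia markers summed to 260 ± 19.97 and 265 ± 21.0 CPM, and brain endothelium markers to 159 ± 21.9 and 159 ± 20.6 CPM. In the samples that stood apart, endothelium markers summed to 184 CPM in vehicle 1 and 140 CPM in Visudyne 15, and microglia markers to 289 and 238 CPM. Other samples went as far or further. Endothelium sums were lower than in Visudyne 15 in Visudyne 12 (135 CPM), vehicle 10 (136 CPM) and vehicle 13 (137 CPM). The highest microglia sum was in Visudyne 12 (293 CPM) and the lowest in vehicle 13 (234 CPM). Border macrophage and monocyte markers summed to 11.8 ± 2.12 CPM with vehicle and 13.96 ± 2.82 CPM with Visudyne, with 8 of 9 tested log2 fold changes positive, 1 of them at an unadjusted p under 0.05 and 0 called, and to 13.7 CPM in vehicle 1 and 17.2 CPM in Visudyne 15. T, NK and plasmacytoid dendritic cell markers summed to 3.42 ± 1.05 and 3.86 ± 1.62 CPM, with the lowest sum in vehicle 1 (2.08 CPM) and the highest in Visudyne 15 (6.52 CPM). Of that list 5 of 10 were tested, and Ccr9 (58 to 143 counts per sample) and Cd3d (20 to 112) were the best detected, both highest in Visudyne 15, while Cd3e had at most 1 count and Ncr1 2 in any sample. Blood markers summed to 10.1 ± 5.10 and 12.2 ± 10.2 CPM. Choroid plexus and ependyma markers summed to 77.7 ± 81.6 and 46.8 ± 14.6 CPM, with 223 CPM in vehicle 7 and 31.2 to 65.9 CPM in the others. Meningeal fibroblast markers summed to 59.6 to 141 CPM with vehicle and 142 to 173 CPM with Visudyne. Of these markers, 10 of 10 had positive log2 fold changes, 5 of them at an unadjusted p under 0.05 (background 1.14%). For 4 of the 10 the groups did not overlap, beside 0.319% of all genes tested on the higher side. Col1a1 was called (1.18 ± 0.16, adjusted p = 0.0485 by edgeR's quasi-likelihood test), 1 of the 4 genes called higher among all genes tested. None of the other marker lists held a called gene. At an unadjusted p under 0.05, Lct of the hippocampal neuron list (-0.18 ± 0.069) and Kl of the choroid plexus list (-0.23 ± 0.084) were lower (background 0.56%). In these lists 5 of 8 and 4 of 7 tested values were negative, and 5 of 5 blood markers were positive. The part of these cell types in the values of the interferon response genes was not tested.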

How the data were processed

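Total hippocampal RNA was extracted on RNeasy columns and sequenced from stranded total RNA libraries, per the labels' protocols. The authors used FastQC and Salmon with the mm10 build, per the submitters' processing notes, and deposited the estimated counts of each Ensembl gene. No version, annotation release or strand setting was given in the sources used here, so reads of near-identical or antisense genes may be split or shared. The values were whole numbers, so rounding changed none.

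Symbols, coordinates and exon lengths came from GENCODE vM21 (GRCm38), which matched 28564 of 28871 identifiers. Genes were tested with edgeR 4.0.16 (R 4.3.3): the default low-count filter (19093 genes left), TMM scaling, the quasi-likelihood F-test without covariates, and Benjamini-Hochberg adjustment over all genes tested at 0.05. SEs were derived from the F statistics. Sequence sharing was counted as 31-base words of GENCODE exons found in other genes. Promoters came from RefSeq.

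Values in every sample are given for the 6 genes of smallest p and for 18 chosen by name, Ly6e being in both sets, and other members by their differences. Of the pathway lists, the 3 genes of smallest p in each list and Ifnb1, Ifnar1, Ifnar2, Jak1 and Tyk2 are named, except for 1 gene that is not reported here. The 38 genes and all lists were chosen with earlier results of these data known. Alternatives used DESeq2 1.42.0, limma 3.58.1 voom, other scalings and filters, the sample number as covariate, neighbouring sample numbers as a block, and the omission of samples.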

Additional observations from a re-analysis of the deposited data

Results flagged for a closer look

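In 8 of 74 groups of 5 samples (37 genes, each in both groups), 1 sample lay so far from its nearest neighbour that the gap exceeded 0.71 of the range of the group, Dixon's 95% limit. That is 10.8% of these groups, beside 5.44% of the 38186 groups of all genes tested, and chance alone gives about 1 in 20 such groups. The sets differ: the 74 groups include Zbp1, which did not pass the filter and is among the 8, while the 38186 hold tested genes only. Whether the members differ from other genes in this was not tested. In the vehicle group, Oasl2 measured 3.12 CPM in vehicle 10, with the next sample at 1.76 CPM, and the same sample had the lowest Xaf1, 1.98 CPM against 2.76 CPM. Iigp1 measured 2.20 CPM in vehicle 1, with the next sample at 1.64 CPM. Zbp1 measured 0.174 CPM in vehicle 4 and 0.0958 CPM in the next sample, on 1 to 11 counts per sample.

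In the Visudyne group, Usp18 measured 0.861 CPM in Visudyne 9, with the next sample at 0.572 CPM. Visudyne 12 held both the highest Ifi27, 19.5 CPM against 16.8 CPM, and the lowest Dhx58, 0.397 CPM against 0.827 CPM. Igtp measured 1.41 CPM in Visudyne 15, with the next sample at 2.24 CPM.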

How the results depend on the processing

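Over 21 alternatives, 0 members were called in either direction. Their smallest adjusted p was 0.570 (Ly6e, with the block described next), and their median log2 fold change ranged from 0.021 to 0.074. Leaving out vehicle 1 and Visudyne 15 together, and the block, were chosen after seeing the data. The filter of 1 CPM left 25 members.

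The groups share no sample number, and the labels do not say that neighbouring numbers (1 and 3, 4 and 6, and so on) pair. Deviations from the group means correlated by 0.109 to 0.507 within these 5 sets, but some samples correlated best with another set. With the sets as replicate block, 9 genes were called higher and 1 lower, the median of the members was 0.052, and Trim30a turned to 0.00034. The difference was positive in all 5 sets for 6 members (Ifit1, Isg15, Ddx58, Irgm1, Samd9l and Cxcl10, 16.7%, beside 3.11% of all genes tested). It was negative in all 5 sets for 3 members (Rtp4, Gbp3 and Ly6e, 8.33%, beside 3.82%). Of these, Isg15 was on 22 to 54 counts per sample, Cxcl10 on 5 to 31 and Rtp4 on 0 to 17. The members were measured in the same 10 samples, and whether they differ from other genes in these shares was not tested.

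The number of all genes called higher was 4, and it became 2 with upper-quartile factors, 2 without mitochondrial genes, 18 with DESeq2, 13 with voom quality weights and 19 with the sample number as covariate. Without vehicle 1 and Visudyne 15 it was 1 higher and 1 lower. Leaving out 1 sample gave 0 to 4 higher and 0 to 1 lower. The cause of these changes was not tested.

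The direction never changed for 15 members, Ly6e, Ifit1 and Rtp4 among them, and changed at least once for 21. Trim30a, at -0.0002, turned to 0.0010 with relative log expression factors, 0.0091 with upper-quartile factors, 0.0031 with no filter, 0.0147 at 1 CPM, 0.0033 with DESeq2, 0.0076 with voom, 0.0784 with quality weights, 0.0141 with the sample number and 0.0341 without vehicle 1 and Visudyne 15. Quality weights also turned Gbp2 (0.1457), Oasl2 (0.0125), Oas2 (-0.0700), Ifit2 (0.0153), Oas1a (0.00019), Ifit3 (0.0377) and Igtp (0.0712). The sample number turned Gbp2 (0.1008), Oas2 (-0.0148), Xaf1 (0.0104), Ifit2 (0.0109), Ifit3 (0.0034) and Igtp (0.0355). Without vehicle 1 and Visudyne 15, Mx1 (-0.0555), Irf9 (-0.0397), Dhx58 (-0.0083), Eif2ak2 (-0.1038), Oas3 (-0.0063), Oas2 (-0.4703) and Stat2 (-0.0349) became negative, and Ifih1 (0.0251), Gbp2 (0.2510), Xaf1 (0.0134), Ifit2 (0.0891), Ifit3 (0.1056) and Igtp (0.1571) positive.

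Leaving out 1 sample turned 17 members, within these ranges: Eif2ak2 -0.0110 to 0.2193, Gbp2 -0.1231 to 0.1554, Gbp7 -0.0306 to 0.0652, Ifi27 -0.0049 to 0.0749, Ifi35 -0.0988 to 0.0473, Ifit2 -0.0859 to 0.0273, Ifit3 -0.0891 to 0.0354, Ifit3b -0.0099 to 0.0929, Igtp -0.1112 to 0.0698, Irf9 -0.0295 to 0.1722, Oas1a -0.1292 to 0.1251, Oas2 -0.3166 to 0.3965, Oasl2 -0.1591 to 0.1781, Stat2 -0.0144 to 0.0723, Trim30a -0.0530 to 0.0599, Usp18 -0.0014 to 0.2570 and Xaf1 -0.0970 to 0.0179. Zbp1, on 1 to 11 counts per sample, was too low to be tested.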
